A study of Homo sapiens with 18 samples.

Results

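The CpGs described here were methylated in DU145 and PC3, lines from prostate cancer, and not in HCT15, a line from colorectal cancer. They were chosen from reduced representation bisulfite sequencing (RRBS), which reads methylation base by base in the CpG-rich part of the genome. An autosomal CpG was a member if it had at least 20 reads in each of the 3 lines, at least 80% methylated reads in both DU145 and PC3, and at most 20% in HCT15. Of 953749 autosomal CpGs with that coverage, called covered CpGs below, 2807 (0.294%) were members. The rule used these RRBS values, so they are given as a description without a test. For comparison, 15228 covered CpGs were methylated by the same cut-offs only in HCT15, 2491 only in DU145 and 1658 only in PC3.

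All 3 lines are established human lines, and the labels name no treatment or engineered allele. Genomic DNA of each line gave 1 RRBS library and 5 MBD-seq libraries, 1 for each of the kits MethylMagnet, MethylCollector, MethylCollector Ultra, MethylCap and MethylMiner, in all 3 RRBS and 15 MBD-seq libraries. With 1 culture per line there were no biological replicates, and the origin of a line from prostate or colon cannot be told apart from other differences between the lines. The PC3 RRBS data held no CpG on chromosome 22 and ended within chromosome 21, so members lay on chromosomes 1 to 21. The MBD-seq libraries held between 9876 and 7163312 autosomal fragments, as counted from rises in depth. In the libraries of 4 kits, the depth at CpGs methylated only in the named line was 1.203 to 7.61 times that of all covered CpGs. The 3 MethylMiner libraries stood apart, with 0.941 for HCT15, 0.876 for DU145 and 1.04 for PC3, and each MBD-seq result below is therefore also given without them.

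In vertebrate DNA most CpGs outside CpG islands carry a methyl group, while islands at gene starts are usually free of it, and methylation there goes along with a silent gene. HOX genes lie in clusters and set positional identity along the body axis, and GATA6, HNF4A and PDX1 are transcription factors of the gut and its derivatives. The methyl-CpG binding domain (MBD) used by the kits holds double-stranded DNA more strongly the more methylated CpGs a fragment carries.

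Member CpGs often lay within a few bases of each other. The next 4 stretches, on the forward strand of NCBI build 37, show how they were packed at genes of the HOX clusters and at developmental regulators, with the CG of each member in capitals. They were chosen after their values were seen, from regions that overlap no untranslated region. Lower-case cg are CpGs that were not members or were not covered in all 3 lines.
HOXA3 and HOXA-AS3, intron, chr7:27179159-27179313: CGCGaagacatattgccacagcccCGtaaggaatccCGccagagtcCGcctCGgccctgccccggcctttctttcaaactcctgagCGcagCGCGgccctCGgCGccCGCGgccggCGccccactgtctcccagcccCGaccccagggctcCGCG
HOXB5, coding exon and intron, chr17:46669674-46669892: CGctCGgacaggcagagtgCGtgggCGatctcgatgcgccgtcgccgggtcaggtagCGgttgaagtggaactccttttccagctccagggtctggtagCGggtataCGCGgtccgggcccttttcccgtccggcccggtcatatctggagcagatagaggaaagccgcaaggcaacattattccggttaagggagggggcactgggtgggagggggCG
PRDM1, intron, chr6:106442797-106442903: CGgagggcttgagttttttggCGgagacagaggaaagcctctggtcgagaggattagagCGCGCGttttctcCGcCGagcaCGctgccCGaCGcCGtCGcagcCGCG
GATA6, coding exon, chr18:19751354-19751651: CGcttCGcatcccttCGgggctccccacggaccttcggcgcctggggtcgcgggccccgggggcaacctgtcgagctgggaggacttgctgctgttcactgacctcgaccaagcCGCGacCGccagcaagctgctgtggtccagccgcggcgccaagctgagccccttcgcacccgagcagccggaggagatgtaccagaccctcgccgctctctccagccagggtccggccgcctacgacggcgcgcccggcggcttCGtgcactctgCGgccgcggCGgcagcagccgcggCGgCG

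The HOXA stretch held 17 members among 19 CpGs and the PRDM1 stretch 14 among 15. The HOXB5 stretch held 9 members among 20 CpGs, of which 12 were covered. In the GATA6 stretch members were thinner, 11 of 39 CpGs, of which 30 were covered. They lay in groups separated by CpGs that did not meet the rule or were not covered.

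Most members were far from the cut-offs. In HCT15 their median methylation was 5.06% (quartiles 0% and 12.5%), and 816 of the 2807 had no methylated read. In DU145 the median was 97.6% (quartiles 94.3% and 100%), and in PC3 it was 96.7% (quartiles 91.7% and 100%). Every read was methylated at 899 members in DU145 and at 1001 in PC3. The median coverage at a member was 41 reads in HCT15, 63 in DU145 and 42 in PC3. Pooled over reads, 6.58% of 140327 reads were methylated in HCT15, 95.7% of 212888 in DU145 and 94.7% of 144434 in PC3.

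The cut-offs themselves passed through a continuum. Within 5 percentage points of the HCT15 cut-off, 481 members lay inside (median 17.9%) and 471 CpGs that met the other conditions lay outside (median 23.3%). At the DU145 cut-off 184 lay inside (median 82.2%) and 167 outside (median 77.4%), and at the PC3 cut-off 287 inside (median 82.5%) and 213 outside (median 76.7%). DU145 and PC3 differed by at most 5 percentage points at 1755 members (62.5%). DU145 was higher by more than 5 points at 642 and PC3 at 410.

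Members were found on chromosomes 1 to 21, most often on chromosome 17. That chromosome held 373 members, 13.3% of all, against 6.94% of the covered CpGs. Of its covered CpGs 0.564% were members, against 0.411% on chromosome 19 and 0.182% on chromosome 9, the lowest share. The HOXB cluster (chr17:46605888-46806112) accounted for 122 of the 373. Without it, 0.384% of the covered CpGs of chromosome 17 were members.

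The HOXB cluster was the densest of the 4 HOX clusters in members. Of its 776 covered CpGs 122 (15.7%) were members. In the HOXA cluster 20 of 682 (2.93%) were members, all in a single region within HOXA3. In the HOXD cluster 1 of 543 was a member and in the HOXC cluster 0 of 457, which for counting error alone allows a share of up to 0.656%. The HOXB members spanned 92.1 kb, from 68.4 kb before to 23.6 kb after the HOXB4 start, and lay in 18 separate regions.

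**Figure D1:**
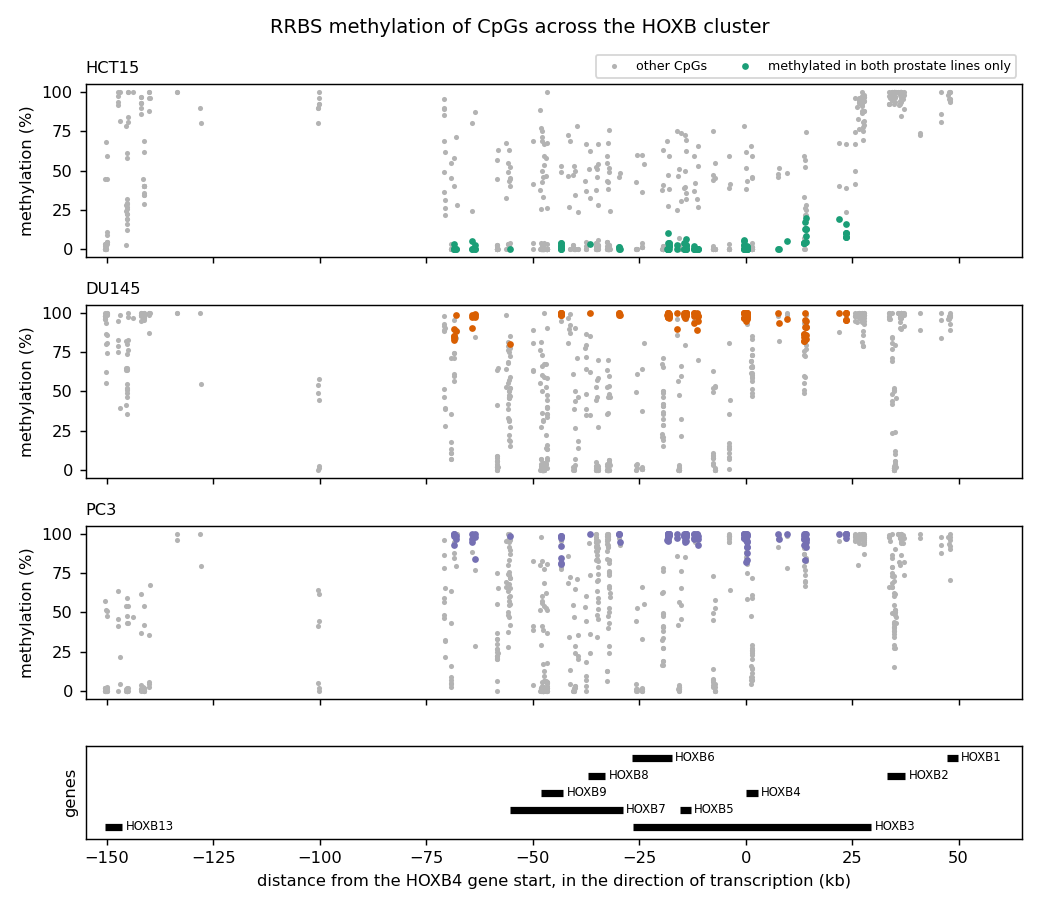
RRBS methylation (%) of each of the 776 covered CpGs of the HOXB cluster in 3 panels, 1 per cell line, against the distance in kb from the HOXB4 gene start in the direction of transcription. Coloured points are the 122 members, grey points the other CpGs, and the lowest panel shows the HOXB genes. Members reach from beyond the HOXB7 start to HOXB3, and none lies in HOXB1, HOXB2 or HOXB13.

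Within the cluster the central genes held the members. HOXB3, whose annotated body spans several of its neighbours, held 95 members among 295 covered CpGs. Its mean methylation over all covered CpGs was 22.7% ± 31.2 in HCT15, 72.3% ± 34.9 in DU145 and 72.7% ± 36.2 in PC3 (SD over CpGs, which is not a replicate error). HOXB5 held 14 of 26, with means of 20.2% ± 26.6, 89.8% ± 21.3 and 92.1% ± 14.8. HOXB6 held 19 of 61, HOXB7 13 of 204, HOXB9 8 of 84 and HOXB8 1 of 34.

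The ends of the cluster differed from its centre. HOXB1 and HOXB2 held no member among 9 and 73 covered CpGs, and their HCT15 means were 97% and 97.4%. HOXB13, a transcription factor of the prostate lineage, held no member among 29 covered CpGs. Its means were 28.5% ± 38.8 in HCT15, 88.3% ± 15.2 in DU145 and 13.7% ± 22.05 in PC3, so the prostate lines lay on opposite sides of HCT15 there.

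Members were mostly outside promoters, here 1000 bp before to 500 bp after a gene start. Of the members 323 (11.5%) lay in a promoter, against 31.8% of all covered CpGs. Among CpGs methylated only in DU145 the share was 14.6%, among those methylated in all 3 lines 8.30%, only in PC3 43.5% and only in HCT15 50.95%. Introns held 1500 members (53.4% against 34.4% of covered CpGs), coding exons 260 (9.26% against 9.44%), untranslated regions 87 (3.10% against 4.598%) and exons of non-coding transcripts 176 (6.27% against 3.04%). A further 461 (16.4% against 16.6%) were intergenic. The median distance from a member to the nearest gene start was 6189 bp, against 2973 bp over covered CpGs.

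Members also lay in sequence poorer in CpGs. A window of 500 bp around a member held a median of 18 CpGs, against 28 around covered CpGs. The median was 17 for CpGs methylated only in DU145, 17 for those methylated in all 3 lines and 53 for those methylated only in HCT15. By GC content of at least 50% and an observed to expected CpG ratio of at least 0.6, 28.3% of members were in island-like windows, against 50.01% of covered CpGs. The share was 26.6% for CpGs methylated only in DU145, 19.6% for those methylated in all 3 lines and 93.6% for those methylated only in HCT15.

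CpGs inside the letters CCGG, the site cut in RRBS, were rare among members. They made up 78 members (2.78%) but 28.0% of covered CpGs. They were as rare or rarer in the other classes with an unmethylated line, 2.29% of CpGs methylated only in DU145, 0.543% of those only in PC3 and 0.21% of those only in HCT15. In island-like windows with at least 40 CpGs, the median methylation at CCGG was 59.5% in HCT15, 56.7% in DU145 and 56.7% in PC3, while at the other CpGs it was 0%, 1.24% and 1.41%. Of the CCGG CpGs in those windows 2.27% were at most 20% methylated in HCT15, against 69.3% of the others. The 1586 CCGG CpGs within 50 bp of a member that were not members had medians of 54.8% in HCT15, 97.1% in DU145 and 96.0% in PC3. Why CCGG read at intermediate levels was not tested.

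Few promoters carried several members. Among 19002 genes with at least 3 covered CpGs in the promoter, 133 had at least 1 member, 42 (0.221%) at least 3, 19 at least 5 and 3 at least 10. Of 11509 protein-coding genes, 70 had at least 1 and 23 at least 3. No promoter consisted of members only.

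The HOXB4 promoter led this list. HOXB4 is a homeobox transcription factor known from blood stem cells, and 27 of its 34 covered promoter CpGs were members. Over all 34 the mean methylation was 8.82% ± 20.2 in HCT15, 98.5% ± 1.96 in DU145 and 93.8% ± 9.22 in PC3 (SD over CpGs), at mean coverages of 77.6, 103 and 88.6 reads. The 7 other CpGs averaged 39.1%, 97.5% and 83.9%. H2BC6, a histone H2B gene of the cluster on chromosome 6, followed with 23 of 31 and means of 13.2%, 98.8% and 97.2%. H2B genes are near-identical copies, so reads there may be split among them. MRPL34, a protein of the mitochondrial ribosome, had 13 of 20 and means of 16.0%, 94.9% and 96.8%. LOXL3, a lysyl oxidase-like enzyme of the extracellular matrix, had 9 of 15 and means of 31.3%, 98.3% and 98.9%. These means include the members chosen for the difference. The covered CpGs that were not members averaged 50.8% in HCT15, 98.8% in DU145 and 98.0% in PC3 at H2BC6, 45.2%, 89.5% and 96.6% at MRPL34, and 77.2%, 97.2% and 99.2% at LOXL3, where the gap was smallest. Some of the CpGs that were not members were CCGG CpGs, which read at intermediate levels in dense windows of all 3 lines. Between the members, CCGG made up 6 of 6 at H2BC6, 2 of 2 at MRPL34 and 3 of 6 at HOXB4. At LOXL3 no covered CpG that was not a member lay between the members, so such a count is not available there. Whether the HCT15 means of these CpGs reflect partial methylation was not tested.

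In other promoters the members were part of a mostly unmethylated window. PDIA3, a disulfide isomerase of the endoplasmic reticulum, had 8 members among 78 covered CpGs, and its means were 11.4% in HCT15, 25.5% in DU145 and 24.3% in PC3. All 8 also lie in the promoter of the pseudogene CATSPER2P1, which starts close by on the other strand and had 8 of 15 with means of 19.2%, 91.3% and 86.3%. DAGLB, a diacylglycerol lipase, and KDELR2, a receptor that returns proteins to the endoplasmic reticulum, are annotated with the same start, so their 5 members among 54 covered CpGs are the same. There the means were 14.2%, 28.5% and 29.9%.

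**Figure D2:**
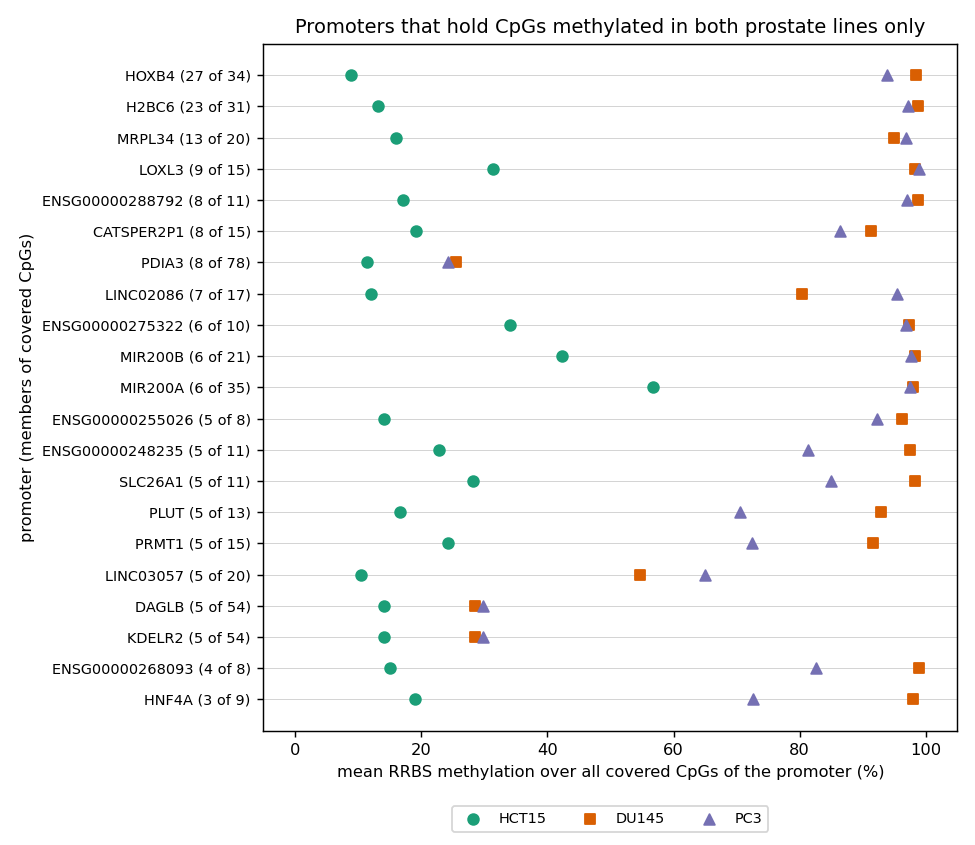
Mean RRBS methylation (%) over all covered CpGs of 21 promoters, the 20 with most members and HNF4A, with members and covered CpGs in brackets. Each symbol is 1 cell line, with no replicate. In the PDIA3, DAGLB and KDELR2 promoters DU145 and PC3 stay below 30%, and in the other promoters they lie between 54.7% and 98.9%.

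Among non-coding genes, the microRNA genes MIR200B and MIR200A, whose products restrain the repressors ZEB1 and ZEB2 in epithelial cells, shared 6 members. Over the 21 covered CpGs of the MIR200B window the means were 42.3% in HCT15, 98.2% in DU145 and 97.6% in PC3. Over the 35 of MIR200A they were 56.7%, 98.0% and 97.5%. At the HOXB7 side of the cluster, the long non-coding genes LINC02086 and LINC03057 start on opposite strands and shared 5 members, with 7 of 17 in LINC02086 and 5 of 20 in LINC03057. The LINC02086 means were 12.0%, 80.4% and 95.4%.

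The remaining promoters of this list held 4 to 8 members each. PLUT, a long non-coding gene beside the pancreas and duodenum factor PDX1, had 5 of 13 with means of 16.6%, 92.9% and 70.5%. SLC26A1, a sulfate transporter, had 5 of 11 (28.2%, 98.2% and 85%), and PRMT1, an arginine methyltransferase, had 5 of 15 (24.3%, 91.6% and 72.4%). In these 3 promoters PC3 was between the other lines. Without a gene symbol were ENSG00000288792 with 8 of 11, ENSG00000275322 with 6 of 10, ENSG00000255026 with 5 of 8, ENSG00000248235 with 5 of 11 and ENSG00000268093 with 4 of 8.

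The counts on the gene lists were small, and so was the background, since 133 of all 19002 genes had at least 1 member in the promoter and 0.221% at least 3. Of 18 measured promoters on the list of intestinal identity, HNF4A, a nuclear receptor of gut and liver, was the only one with at least 3 members. It had 3 of 9, and its means were 19% in HCT15, 98.0% in DU145 and 72.5% in PC3. ASCL2, an intestinal stem cell factor, had 1 of 45. Of 33 HOX promoters HOXB4 alone had at least 3, and HOXB5 had 2, HOXB7 1 and HOXB8 1. No promoter had 3 or more among 9 of prostate identity, 15 often methylated in prostate cancer, 21 often methylated in colorectal cancer, 39 of epithelial junctions and keratins, 101 of other homeobox and related factors, 22 of clustered protocadherins and 355 of ZNF zinc finger genes. In these 7 lists CYBA had 1 member, ZNF513 had 2 and ZNF814 had 1, and with counts this low the 7 lists cannot be set apart from the background.

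Gene bodies were counted in the same way. With 5 kb before the start added, a window chosen after the promoters were seen, 965 of 14273 protein-coding genes (6.76%) had at least 1 member and 114 (0.799%) at least 5. On the intestinal list 7 of 23 had at least 1 and 3 at least 5, among them GATA6 and PDX1. On the HOX list 10 of 39 had at least 1 and 7 at least 5, namely HOXB3, HOXB4, HOXB5, HOXB6, HOXB7, HOXB9 and HOXA3, and the HOXB windows among these partly overlap. On the list of clustered protocadherins, which overlap each other, 15 of 44 had at least 1 and 0 at least 5. At least 1 member was found in 1 of 16 genes of prostate identity, 3 of 19 often methylated in prostate cancer, 2 of 20 often methylated in colorectal cancer, 5 of 50 of epithelial junctions and keratins, 5 of 123 of other homeobox and related factors and 25 of 417 ZNF genes. At least 5 were found in none of these lists other than in ZNF236. The median number of covered CpGs per gene was 44 over all genes, but 80 on the intestinal, 72 on the HOX and 172 on the protocadherin list.

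GATA6 had 21 members among 205 covered CpGs of this window. PRDM1, a transcriptional repressor that drives plasma cell differentiation, had 14 among 38. CCDC102A, a coiled-coil protein, had 25 among 120, and IL17C, a cytokine made by epithelia, 21 among 61. GATA6 and PRDM1 fall outside the naming rule and were chosen after their values were seen.

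Members came in clusters. Joined over gaps of up to 500 bp, the 2807 formed 1443 regions, of which 945 were single CpGs, 399 held 2 to 4 and 99 held at least 5. These 99 regions held 855 members (30.5%), and the 22 with at least 10 held 384. The nearest covered CpG was itself a member for 1195 members (42.6%), while 0.294% of covered CpGs were members. By the same measure the share was 69.1% for CpGs methylated only in HCT15, 32.7% for DU145 and 65.2% for PC3. Neighbouring CpGs can share reads, so these shares carry no test.

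The 99 regions had a median length of 168 bp, from 28 to 1413 bp, and a median of 79.3% of their covered CpGs were members. In 22 regions every covered CpG was a member. The 399 covered CpGs inside the regions that were not members included 179 (44.9%) in CCGG. A promoter was overlapped by 16 regions and a gene by 79.

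The largest region, chr5:42992047-42993459, held 41 members among 59 covered CpGs and reached the start of the long non-coding gene ENSG00000287263. Its members averaged 1.42% ± 2.86 in HCT15, 97.4% ± 3.24 in DU145 and 97.7% ± 2.91 in PC3 (SD over CpGs). Outside promoters, the largest began with chr16:57562480-57563010 in CCDC102A, with 25 of 28 and member means of 4.00%, 98.7% and 97.9%. The pseudogene TRIM80P followed (chr17:73073326-73073941) with 24 of 35 and means of 6.45%, 90.6% and 94.4%. The region nearest to IL17C (chr16:88700948-88701282), 3698 bp from its start and over no gene, had 21 of 25 and means of 1.93%, 93.6% and 98.3%.

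The next were in HOX clusters. The region in HOXA3 nearest to HOXA5 (chr7:27178861-27179313) had 20 of 24 and means of 5.13%, 96.8% and 99.2%, and the first stretch printed above is part of it. The region in HOXB3 and HOXB6 nearest to the HOXB5 start (chr17:46673615-46674067) had 19 of 22 and means of 1.56%, 98.5% and 99.1%. Tied with it at 19 members, among 33 covered CpGs, was a region in PEAK3 (chr19:2275937-2276367), with means of 11.1%, 98.4% and 98.8%.

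Over the 99 regions DU145 and PC3 means differed by at most 5 percentage points in 85. DU145 was higher by more in 7 regions and PC3 in 7. The widest gap with DU145 higher was 12.8 points, at ENSG00000248235. Where PC3 was higher, the mean of DU145 lay at most 10.2 points below it, at LINC02086 and LINC03057.

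CpGs that the rule could not use were read by their distance from a member. These CpGs had 6 to 19 reads in at least 1 line. They come from the same libraries, and those close to a member can share its reads, so they are not an independent check. The 248 of them within 20 bp of a member averaged 31.6% ± 34.6 in HCT15, 90.2% ± 15.9 in DU145 and 89.8% ± 19.4 in PC3 (SD over CpGs). At 201 to 500 bp the means were 48.2%, 79.3% and 75.8% (n = 1475). At 501 to 1000 bp the mean of the prostate lines exceeded HCT15 by 12.3 points (n = 2764) and at 1001 to 2000 bp by 3.41 points (n = 4815). Over all 1194008 such CpGs the means were 70.5%, 72.7% and 64.8%.

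**Figure D3:**
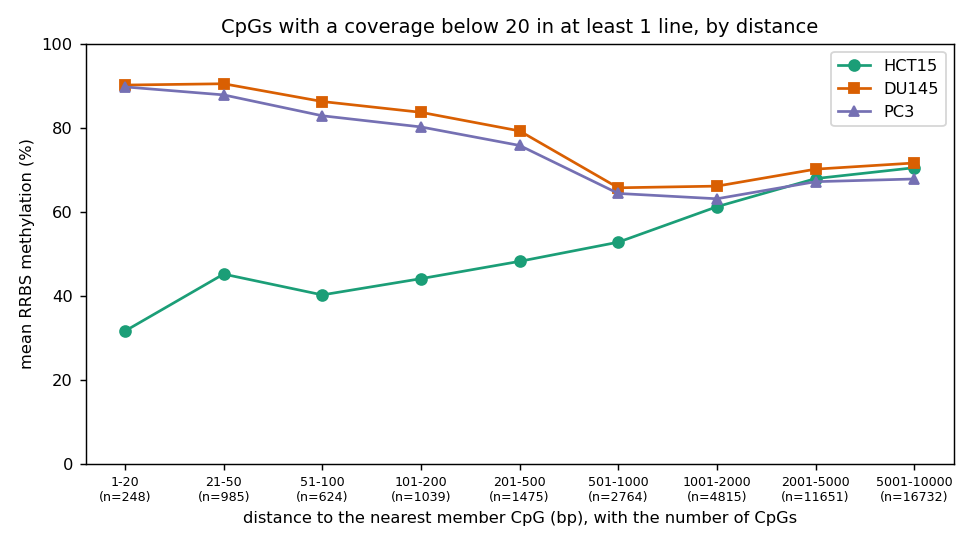
Mean RRBS methylation (%) of CpGs with a coverage below 20 in at least 1 line, against their distance in bp from the nearest member, with 1 line per cell line and the number of CpGs under each bin. DU145 and PC3 start near 90% within 20 bp and HCT15 at 31.6%, and the 3 lines come together beyond 1000 bp.

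The pattern itself, at least 80% in both prostate lines and at most 20% in HCT15, was met by 37.1% of the unused CpGs within 20 bp, by 12.9% at 201 to 500 bp and by 0.446% of all unused CpGs. Of the 99 regions 61 held at least 3 unused CpGs, and in 55 of these both prostate means were above the HCT15 mean. The medians over those regions were 21.4% in HCT15, 94.0% in DU145 and 93.4% in PC3. Reads shared with members limit these counts as well.

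MBD-seq measured the same DNA without bisulfite and was not used in the choice of members. The deposited signal is fragment depth, which was read at each member. Mean depth differed with the size of the library. With MethylCap it was 0.551 fragments per member in HCT15, 0.577 in DU145 and 0.741 in PC3, although the HCT15 library was the largest of these 3. It was therefore divided by the mean depth over all covered CpGs of the same library, which gives the relative depth.

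The members were low in HCT15 and high in both prostate lines with 4 of the 5 kits. With MethylMagnet the relative depth was 0.288 for HCT15, 1.52 for DU145 and 1.98 for PC3. With MethylCollector it was 0.1998, 1.78 and 1.84, with MethylCollector Ultra 0.237, 2.01 and 1.84, and with MethylCap 0.314, 1.72 and 1.76. In these 4 kits no HCT15 library overlapped a prostate library. With MethylMiner it was 1.07, 1.04 and 0.920, with HCT15 the highest.

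**Figure D4:**
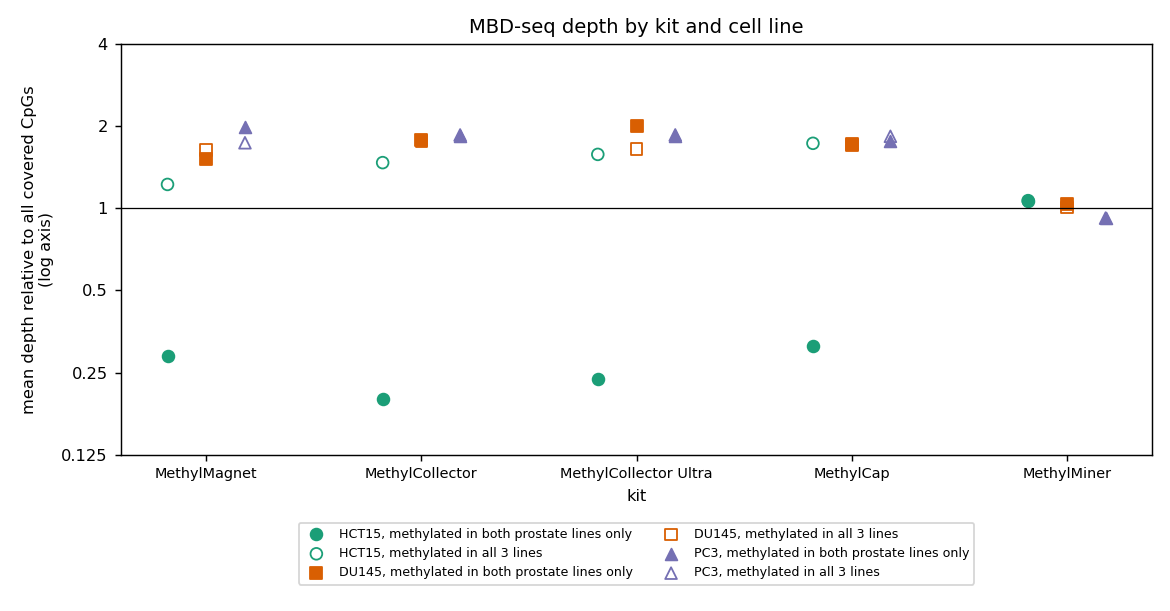
Relative depth (mean depth over the CpGs divided by the mean over all covered CpGs of the library, log axis) for the 15 MBD-seq libraries by kit. Filled symbols are members and open symbols CpGs methylated in all 3 lines, with 1 library per symbol. With 4 kits the HCT15 members lie between 0.1998 and 0.314 and the DU145 and PC3 members between 1.52 and 2.01, next to the CpGs methylated in all 3 lines, and with MethylMiner all symbols lie near 1.

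Across the 5 kits the DU145 value exceeded the HCT15 value by 2.21 ± 1.31 on the log2 scale (SD, n = 5 kits), and was higher with 4 of 5 kits (exact two-sided sign-flip permutation test, p = 0.125, Benjamini-Hochberg adjusted p = 0.188 over 3 pairs). PC3 exceeded HCT15 by 2.24 ± 1.40, again with 4 of 5 kits (exact permutation p = 0.125, adjusted p = 0.188). With 5 kits this test cannot give less than 0.0625, so a p under 0.05 could not be reached. DU145 and PC3 differed by -0.03 ± 0.22, DU145 being higher with 2 of 5 kits (exact permutation p = 0.812, adjusted p = 0.812). Without the MethylMiner libraries the difference from HCT15 was 2.77 for DU145 and 2.86 for PC3, in the same direction with all 4 kits (exact permutation p = 0.125, the smallest that 4 kits allow). The kits were applied to 1 DNA source per line, so these tests measure the spread between kits and not between cultures.

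In single kits the DU145 libraries exceeded HCT15 5.29-fold with MethylMagnet, 8.93-fold with MethylCollector, 8.49-fold with MethylCollector Ultra and 5.47-fold with MethylCap. PC3 exceeded it 6.89-fold, 9.23-fold, 7.76-fold and 5.61-fold. The relative depths of the prostate lines at members were close to those at CpGs methylated in all 3 lines, which with these 4 kits were 1.64 to 1.86 in DU145 and PC3 and 1.22 to 1.73 in HCT15. CpGs unmethylated in all 3 lines lay at 0.0561 to 0.198 in these 12 libraries, below the HCT15 value at members with each of the 4 kits.

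Over the 10 DU145 and PC3 libraries, 92.9% of the variation in log2 relative depth at members lay between kits (exact permutation of kits within cell lines, 14400 relabellings, p = 0.167, the smallest possible being 0.00833). Without MethylMiner the share was 25.4% (exact permutation p = 0.833). The mean relative depth over both prostate lines ran from 1.74 with MethylCap and 1.75 with MethylMagnet to 1.81 with MethylCollector and 1.92 with the Ultra version, and MethylMiner stood at 0.978.

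CpG density moved with the depth in both prostate lines with every kit, least with MethylMiner, and its part in the difference between lines was not tested. The covered CpGs used for comparison also change with density. CpGs unmethylated in all 3 lines had a median of 52 CpGs in 500 bp, and those methylated in all 3 lines 17. How far this moved the relative depths was not tested. Where a 500 bp window held at least 30 CpGs, the relative depth of the 682 members there, set against covered CpGs of the same density, was 2.54 with MethylMagnet in DU145 and 3.95 in PC3, and 3.34 and 3.35 with MethylCollector. In HCT15 it was 0.285 with MethylMagnet and 0.359 with MethylCollector. Where the window held under 15 CpGs, the 936 members were at 0.147 for HCT15, 1.01 for DU145 and 1.55 for PC3 with MethylCollector. With MethylMagnet they were at 1.46, 2.13 and 1.54, so HCT15 was not low there, at mean depths of 0.00855, 0.00321 and 0.0353 fragments. With MethylCap the values for HCT15, DU145 and PC3 were 0.234, 1.15 and 1.23 under 15 CpGs. They were 0.523, 3.23 and 3.67 at 30 or more. With MethylCollector Ultra they were 0.246, 1.42 and 1.44, and 0.392, 3.31 and 3.41. A member in a dense window was hit by a PC3 MethylMagnet fragment in 71.4% of cases and in a sparse one in 3.53%.

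Single CpGs were often missed. With MethylCap 842 of the 2807 members had a fragment in HCT15, a share with a 95% Wilson interval of 28.3 to 31.7%. The DU145 share was 40.8% (39.0 to 42.6%), and the PC3 share 45.1% (43.2 to 46.9%). With MethylMagnet the shares were 3.03%, 2.17% and 23.8%. Over all covered CpGs the MethylCap shares were 53.1% in HCT15, 22.9% in DU145 and 25.5% in PC3. The MethylMagnet shares there were 7.70%, 1.39% and 11.8%. Members were thus below all covered CpGs in HCT15 and above them in both prostate lines with these kits. The intervals cover counting error only, and members in a region share fragments. In the 4 kits other than MethylMiner, 2132 members (76.0%) had a fragment in at least 1 prostate library and 995 (35.4%) in an HCT15 library. For these counts over 4 kits no share over all covered CpGs was computed. The first pools the libraries of both prostate lines and the second those of HCT15 alone, so they do not measure a difference between lines. The 675 members without a fragment in a prostate library had a median of 13 CpGs in 500 bp, against 20 for the others.

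A fragment in both prostate libraries and none in HCT15, the pattern of the RRBS values, was found at 39 members with MethylMagnet (1.39%, against 0.319% of all covered CpGs). It was found at 58 with MethylCollector (2.07% against 0.196%), at 64 with MethylCollector Ultra (2.28% against 0.269%) and at 373 with MethylCap (13.3% against 0.877%). With MethylMiner 108 members met it, 3.85% against 4.35%, a share near the background. The reverse, a fragment in HCT15 and none in either prostate library, was found at 35, 98, 111, 223 and 668 members in the same order of kits. These were 1.25%, 3.49%, 3.95%, 7.94% and 23.8% of members, against 3.54%, 13.9%, 14.1%, 22.2% and 22.5% of all covered CpGs. Library sizes differed between the lines, so both counts move with depth.

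Over the 99 regions the fragments were counted directly. With MethylCap 94 fragments of HCT15 fell on them, 190 of DU145 and 215 of PC3. With MethylCollector there were 22, 26 and 81, with MethylCollector Ultra 28, 29 and 299, and with MethylMagnet 8, 8 and 249. The HCT15 and PC3 libraries of these 4 kits were larger than the DU145 ones. With MethylMiner there were 298, 178 and 126. MethylCap covered 37 regions in HCT15 and 71 in each prostate line. It covered 28 regions in both prostate lines and not in HCT15, and 3 in HCT15 only. These 2 counts were 5 and 2 with MethylMagnet, 11 and 3 with MethylCollector, and 8 and 1 with MethylCollector Ultra. With MethylMiner they were 1 and 14. No share over comparable regions without members was computed, and the counts move with library size.

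**Figure D5:**
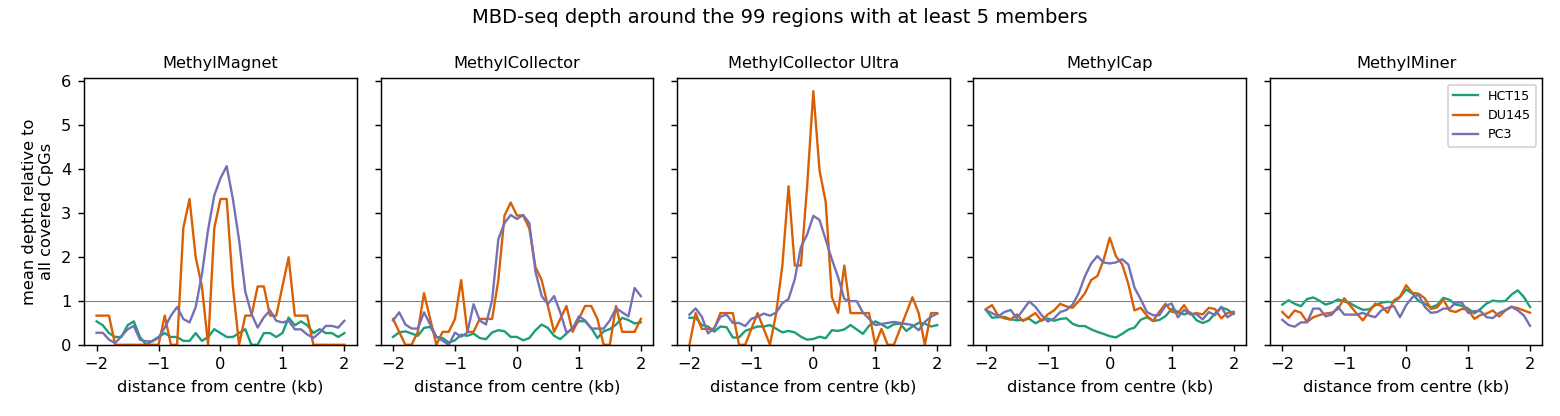
Mean depth relative to all covered CpGs (linear axis) within 2 kb on each side of the centres of the 99 regions, in a panel per kit and a curve per cell line, 1 library each. With 4 kits DU145 and PC3 peak near the centre and HCT15 has no peak, and with MethylMiner the values at the centre are 1.26 in HCT15, 1.35 in DU145 and 0.90 in PC3.

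At the centre of the regions the MethylCap relative depth was 0.20 for HCT15, 2.43 for DU145 and 1.85 for PC3, and 2 kb before it 0.79, 0.81 and 0.79. The DU145 curves of MethylMagnet and MethylCollector Ultra were uneven, from libraries of 9876 and 29914 autosomal fragments.

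At named genes the counts were small. Over the 8 regions of the HOXB cluster, which held 100 members, the 4 kits other than MethylMiner gave 10 HCT15, 15 DU145 and 102 PC3 fragments. MethylMiner gave 21, 11 and 12. Over the whole HOXB cluster, scaled to 1000000 autosomal fragments of each library, MethylCap gave 104 for HCT15, 152 for DU145 and 244 for PC3, from 398, 123 and 227 fragments. MethylCollector gave 275, 616 and 755 on the same scale, from 72, 18 and 63 fragments. MethylMiner gave 121, 118 and 172, so PC3 was the highest with this kit as well. Over the HOXA cluster MethylCap gave 116, 143 and 74.0, and MethylCollector 379, 616 and 443. With MethylCap the HOXC cluster gave 139, 121 and 112, and the HOXD cluster 130, 91.2 and 134. Higher DU145 than HCT15 values were therefore not particular to the HOXB cluster.

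At the HOXB4 promoter itself no library of HCT15 or DU145 other than MethylMiner had a fragment, and PC3 had 3 with MethylMagnet, 1 with MethylCollector, 10 with MethylCollector Ultra and 2 with MethylCap. DU145, at 98.5% in RRBS, was therefore not distinguishable from HCT15 there at this depth. At some other promoters HCT15 had more fragments than DU145 with these 4 kits together. These are counts without scaling, and the HCT15 libraries were larger than the DU145 ones. With MethylCap they held 3825379 and 811203 autosomal fragments. The counts for HCT15, DU145 and PC3 were 25, 2 and 16 at LOXL3, 13, 7 and 27 at MRPL34, 9, 2 and 6 at CATSPER2P1 and 10, 5 and 7 at ENSG00000248235. At H2BC6 they were 1, 6 and 14. Over the GATA6 region the 4 kits gave 0 HCT15, 7 DU145 and 36 PC3 fragments. Over the PRDM1 region they gave 0, 1 and 3. MethylMiner gave 5, 3 and 4 over GATA6. These regions were named after their values were seen, and the counts carry no test.

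The largest regions gave more. At TRIM80P the 4 kits gave 2 HCT15, 9 DU145 and 46 PC3 fragments, at CCDC102A 3, 7 and 19, near IL17C 4, 4 and 13 and in HOXA3 1, 3 and 10. The region in HOXB3 and HOXB6 had 3, 4 and 28, and the largest region, on chromosome 5, had 4, 12 and 17. At PEAK3 there were 16, 12 and 21. In each of these 7 regions PC3 had the most fragments. HCT15 had fewer than DU145 in 5, the same number near IL17C and more at PEAK3. These counts were not scaled to library size. With MethylMagnet the PC3 library held 236128 autosomal fragments and the DU145 library 9876, and with MethylCollector Ultra 566657 and 29914.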

How the data were processed

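MBD-seq was done on 15 libraries (5 kits, 3 cell lines) and RRBS on 3. The authors deposited MBD-seq as a signal, the depth (coverage) of non-duplicate fragments along the genome after mapping with Bowtie to hg19 (NCBI build 37), with no scaling to library size. For RRBS the deposited values are read counts at each CpG, methylated and total, with strands summed and a lowest coverage of 6; the aligner was not given in the sources used here. Rows off a CG were dropped. Annotation and CpG density came from GENCODE 44 and the genome on that build. CpGs of chromosome 22 were not in the PC3 data used here.

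The members and gene lists were chosen with earlier results of these data known. The promoters named are the 20 with most members, listed genes with at least 3, and the 5 regions with most members outside promoters, with 1 tied for the last place. Relative depth was compared between lines within kits by exact sign-flip permutation, and kits by exact permutation within lines. The kit pairs the 3 libraries because each kit was applied once to each line. Depth limits single CpGs (9876 to 7163312 fragments per library). The median RRBS coverage was 31 to 46 among CpGs with at least 20 reads in the line, and is lower over all CpGs. Alternatives changed coverage, cut-offs, joining distance, promoter definition, scaling and kits. The values of 1 gene are not reported here. Scripts were tested on simulated data and used pysam 0.24.0, scipy 1.17.1, matplotlib 3.10.9, pandas 2.3.3 and numpy 2.4.6 under Python 3.11.15.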

Additional observations from a re-analysis of the deposited data

Results flagged for a closer look

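With MethylMiner the differences of both prostate lines from HCT15 at the members had the opposite sign to those with the other 4 kits. The log2 relative depth differed by -0.045 between DU145 and HCT15 and by -0.21 between PC3 and HCT15, while with MethylMagnet, MethylCollector, MethylCollector Ultra and MethylCap both differences lay above 0. With MethylMiner the relative depth at CpGs methylated in all 3 lines was 1.07 in HCT15, 1.01 in DU145 and 0.921 in PC3. At CpGs unmethylated in all 3 lines it was 0.979, 1.04 and 1.18, so the classes were hardly set apart by this kit. Whether MethylMiner differed from the other kits in the sign at the members was not tested, since each kit gave 1 library per line.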

How the results depend on the processing

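The number of members followed the cut-offs. A coverage of at least 10 gave 5126 members and of at least 50 gave 721, with 161 and 23 regions of at least 5 members, 9.97% and 13.6% in promoters, and 39.0% and 48.0% whose nearest covered CpG was a member. Cut-offs of 0.9 and 0.1 gave 1423 members and 55 regions, and those of 0.7 and 0.3 gave 4973 members with 40.1% next to a member. Without CCGG, added after seeing the data, the last share was 54.2%. The share in promoters was 2.46% for 250 bp before to 50 bp after the start, 25.4% for 2000 bp on both sides, 27.6% with the starts of all transcripts and 7.23% with protein-coding genes only, against 10.2%, 45.6%, 46.3% and 24.6% of all covered CpGs.

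Both prostate lines stayed above HCT15 in mean log2 relative depth under all 19 alternatives, by 1.72 to 2.78 for DU145 and 1.62 to 2.95 for PC3, and by 1.97 to 2.77 and 2.00 to 2.86 with each kit left out in turn. Without the kit as a replicate block the differences were again 2.21 and 2.24, with p = 0.016 for each (exact permutation test). That test treats libraries from 1 DNA source per line as independent. The paired test could not fall under 0.0625 with 5 kits, so the side of 0.05 says nothing about the pairing. The small difference between DU145 and PC3 turned to 0.027 when divided by CpGs methylated in all 3 lines, to 0.13 when divided by the summed depth, to 0.11 when every region counted once and to 0.057 outside the HOXB cluster (added after seeing the data). With each kit left out it ran from -0.085 (without MethylMiner) to 0.053, the latter without MethylMagnet. The share between kits was 99.2% with the summed depth and 92.8% when every region counted once (exact permutation p = 0.0083 for each, the smallest possible), 25.4% without MethylMiner and 24.1% relative to CpGs methylated in all 3 lines. The causes of these shifts were not tested. Depth limits statements on single CpGs and promoters, most of all in DU145.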

Other observations

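Further regions of at least 5 members lay in genes not described above. They were chosen after their values were seen. In NR5A2, a nuclear receptor of the gut and pancreas, 9 of 11 covered CpGs of chr1:200011998-200012085 were members, with member means of 1.35% in HCT15, 93.7% in DU145 and 93.4% in PC3. In AXIN2, a negative regulator and target of the Wnt pathway, 9 of 16 of chr17:63533180-63533861 were members (3.55%, 98.3% and 95.2%), and in FGF18, a fibroblast growth factor, 9 of 22 of chr5:170877491-170878111 (6.08%, 97.9% and 93.4%). Over ACOXL and MIR4435-2HG, 13 of 15 of chr2:111875301-111875709 were members (1.43%, 97.8% and 97.5%). The nearest edge of that region lay 1246 bp from the start of BCL2L11, which encodes a pro-apoptotic member of the BCL2 family. In the 4 kits other than MethylMiner, the NR5A2 region had 2 HCT15, 1 DU145 and 13 PC3 fragments, the AXIN2 region 3, 8 and 15, the FGF18 region 3, 1 and 25, and the BCL2L11 region 0, 2 and 12. The DU145 counts at NR5A2 and FGF18 were below those of HCT15, without scaling to the larger HCT15 libraries.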
